A study of Mus musculus with 6 samples.

Results

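The genes that make, conjugate, move and sense bile acids were examined in the liver of male mouse pups in which human *SRY*, the testis-determining gene of the Y chromosome, had been switched on or left silent. They were chosen by name: *Cyp7a1*, *Cyp7b1*, *Cyp8b1* and *Cyp27a1* (cholesterol hydroxylases), *Slc27a5* and *Baat* (conjugation), *Slc10a1* and *Abcb11* (transport), and *Nr1h4* and *Nr0b2* (the receptor FXR and its repressor partner SHP). These 10 genes, of 18138 gene symbols in the table, had 12 of its 25697 probes, and every one of those probes was taken. Only *Cyp27a1* had more than 1 probe. Expression was measured with Illumina MouseRef-8 bead arrays in whole liver at postnatal day 6, with 3 hSRY-OFF and 3 hSRY-ON pups of the FVB strain (FVB/N in the study's methods), which the study calls biological triplicates.

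Pups of both groups carried the Signalox-hSRY transgene, present as a single copy and driven by the broadly active CAG promoter. In hSRY-OFF pups the transgene was not recombined, so that the promoter drove the red fluorescent protein DsRed2 and *hSRY* stayed silent. In hSRY-ON pups Cre had removed the *DsRed2* part, and the promoter drove FLAG-tagged *hSRY* together with EGFP. The Cre came from the oocytes of *Ddx4-Cre* mothers and acted at the single-cell stage, and the hSRY-ON pups used for arrays did not themselves carry *Ddx4-Cre*. *SRY* was therefore active throughout the body and not in the liver alone, and a maternal *Ddx4-Cre* genotype, a change of fluorescent protein and *hSRY* activation cannot be told apart in this design. Body weight and feeding of the single pups were not analysed here.

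Hepatocytes make bile acids from cholesterol. The classic route begins with 7α-hydroxylation by CYP7A1, its rate-limiting enzyme, and an alternative route begins with side-chain hydroxylation by the mitochondrial enzyme CYP27A1 followed by 7α-hydroxylation by CYP7B1, while CYP8B1 adds the 12α-hydroxyl group that makes cholic acid. Bile acids that return from the gut are taken up by NTCP (*Slc10a1*), coupled to coenzyme A by the ligase encoded by *Slc27a5*, joined to taurine or glycine by BAAT and pumped into bile by BSEP (*Abcb11*), and FXR, once bound by bile acids, raises *Nr0b2* and *Abcb11* transcription, with SHP holding *Cyp7a1* and *Cyp8b1* down.

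Promoters were available in the RefSeq collection (GRCm38.p6, 32851 promoters of 250 bases before to 50 bases after the gene start) for 6 of the 10 genes, namely *Cyp8b1*, *Cyp27a1*, *Nr0b2*, *Nr1h4*, *Slc10a1* and *Abcb11*. They were searched on both strands for short strings that stand for sites of regulators of the pathway. The inverted repeat to which FXR and RXR bind, searched as the half-sites GGNCA and TGNCC with 1 base (N) between them (its own reverse complement, so that each match counts on both strands), was found in 0.676% of all promoters and in 1 of the 6, that of *Abcb11*, 62 bases before the start. The same string lay 87 bases before the start of *Slco1b2*, a hepatic uptake transporter described below. *Slco1b2* was the only gene outside the 10 whose promoter matches were listed by name. No count over the other genes described below is given. The string CAAGGCCA, which LRH-1 (*Nr5a2*) can bind, was in 2.4% of all promoters and in that of *Nr0b2*, 201 bases before the start, and the related CAAGGTCA was in 1.56% of all promoters and in none (0) of the 6. The HNF4 string CAAAGTCCA was in 0.475% of all promoters and in that of *Cyp8b1*, 67 bases before the start. AACAAT, the core to which SRY and other SOX proteins bind, was in 10.7% of all promoters and in none (0) of the 6. The 4 stretches below are shown because they hold the strings of genes described here. Each is 100 bases long, 5′ to 3′ on the strand of the gene, with the matched string in capitals, and a match describes letters only. The *Abcb11* stretch is chr2:69342637-69342736 (minus strand), the *Slco1b2* stretch chr6:141629398-141629497 (plus), the *Nr0b2* stretch chr4:133553136-133553235 (plus) and the *Cyp8b1* stretch chr9:121916326-121916425 (minus).
Abcb11: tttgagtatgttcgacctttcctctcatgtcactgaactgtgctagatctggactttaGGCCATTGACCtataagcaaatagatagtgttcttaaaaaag
Slco1b2: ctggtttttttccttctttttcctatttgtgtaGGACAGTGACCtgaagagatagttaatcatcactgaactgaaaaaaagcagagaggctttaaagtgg
Nr0b2: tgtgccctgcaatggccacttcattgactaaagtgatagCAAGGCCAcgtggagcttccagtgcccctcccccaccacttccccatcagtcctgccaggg
Cyp8b1: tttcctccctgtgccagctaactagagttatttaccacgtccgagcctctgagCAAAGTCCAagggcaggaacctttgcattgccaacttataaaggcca

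Values below are log2 signals after background correction and normalization between arrays, and differences are hSRY-ON minus hSRY-OFF with their standard error. A probe was called detected on an array at a detection p under 0.01, tested if detected on at least 3 of the 6 arrays, and called at an adjusted p under 0.05 (limma, Benjamini-Hochberg over all tested probes). Of the 12 probes 9 were tested, covering 7 genes. The single probes of *Baat*, *Nr0b2* and *Slc10a1* were not detected on any of the 6 arrays. The test called 1 gene higher in hSRY-ON liver, *Cyp27a1* by all 3 of its probes, and 4 genes lower, *Cyp7a1*, *Cyp7b1*, *Cyp8b1* and *Slc27a5*, while *Abcb11* and *Nr1h4* were not called. Over all 10734 tested probes 33.1% were called, 15.8% higher and 17.3% lower, so that change was common in this liver. The median difference was -0.43 over the 9 tested probes of these genes and 0.017 over all tested probes.

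**Figure D1:**
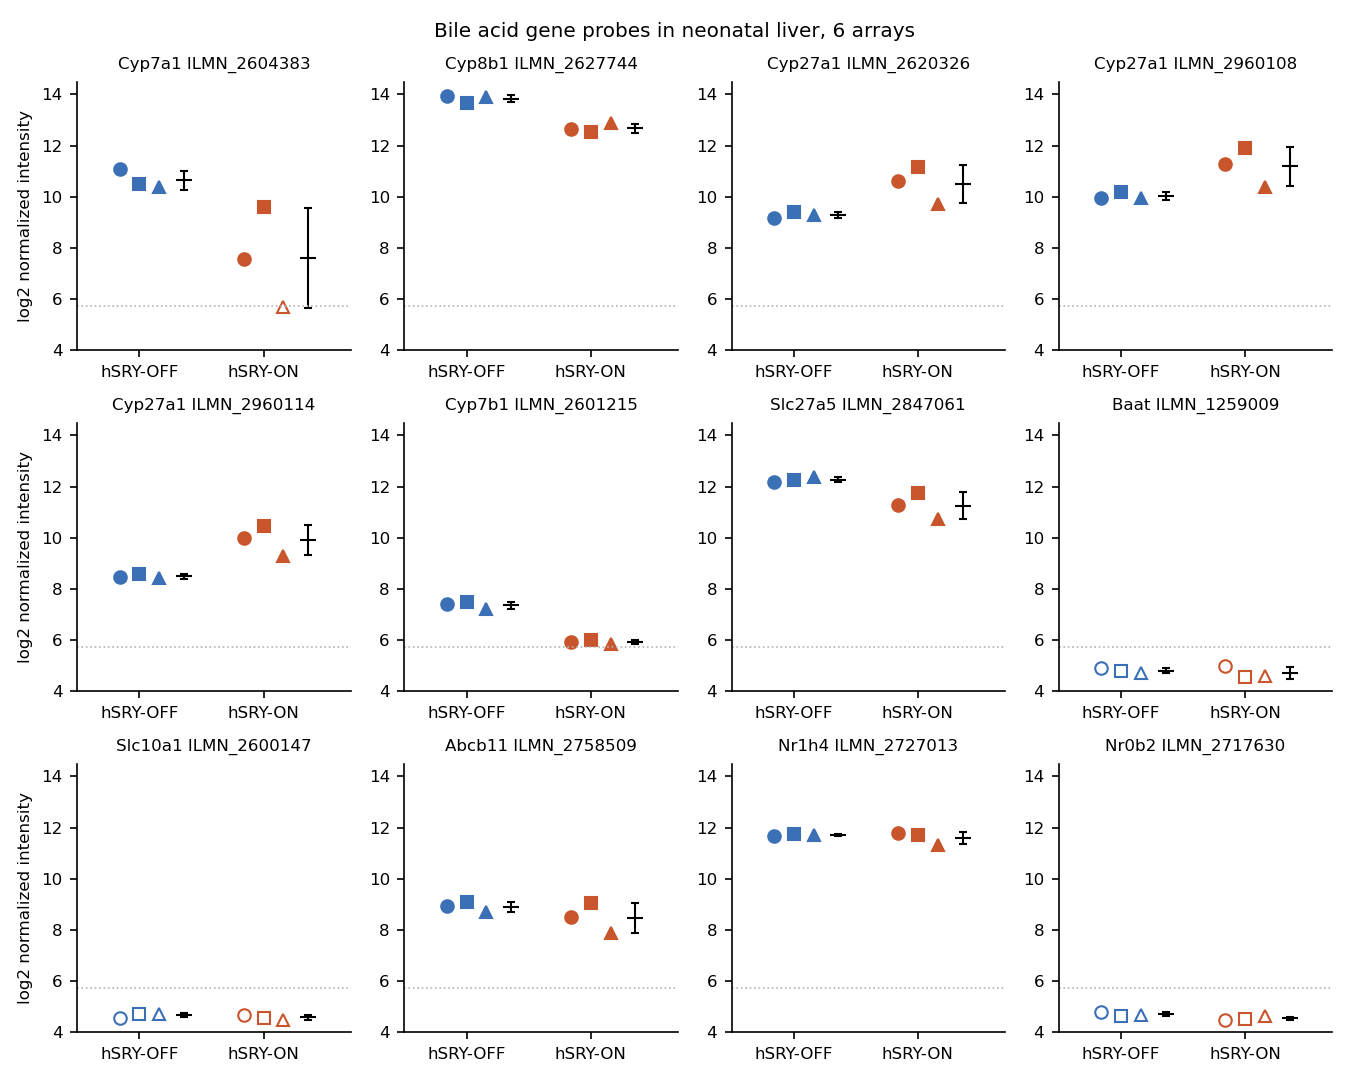
Log2 normalized signal (vertical axis) of the 12 probes of the 10 genes on the 3 hSRY-OFF and 3 hSRY-ON arrays, 1 panel per probe. Circles, squares and triangles are replicates 1, 2 and 3, filled where the probe was detected and open where not, black bars are the mean ± SD and the dotted line is the mean detection floor. *Cyp7b1* and *Cyp8b1* form tight, separate groups, the 3 *Cyp27a1* probes lie higher in hSRY-ON liver, and *Cyp7a1* spreads from 5.70 to 9.60 among the hSRY-ON arrays.

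*Cyp7a1* showed the largest difference of the 10 genes. The intensities as deposited were 2502, 1764 and 1234 in hSRY-OFF replicates 1, 2 and 3 and 341, 875 and 164 in hSRY-ON replicates 1, 2 and 3. After normalization these were 11.06, 10.51 and 10.37 against 7.57, 9.60 and 5.70. All hSRY-ON arrays lay below all hSRY-OFF arrays, and the probe was not detected in hSRY-ON replicate 3, where its detection p lay just over the limit. The mean fell from 10.65 ± 0.37 to 7.62 ± 1.95 (SD, n = 3 each), a difference of -3.03 ± 0.85 (adjusted p = 0.0312), or 8.14-fold lower, and -3.00 with the undetected array set to its detection floor. By size the difference ranked 75 among the 10734 tested probes.

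The 3 hSRY-ON livers were far apart in *Cyp7a1*. The highest was 14.9 times the lowest on the normalized scale, against 1.62 times among the hSRY-OFF livers, and the SD of the hSRY-ON group was larger than that of 99.9% of tested probes. Without hSRY-ON replicate 3 the difference was -2.06 (adjusted p = 0.0272), and without hSRY-ON replicate 2 it was -4.01 (adjusted p = 0.00294). The call was lost when hSRY-ON replicate 1 or any single hSRY-OFF array was left out (adjusted p = 0.0715 to 0.104).

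*Cyp8b1*, whose enzyme sets the share of cholic acid, gave 13.93, 13.68 and 13.89 in hSRY-OFF liver and 12.65, 12.53 and 12.87 in hSRY-ON liver. The groups did not overlap and were about equally tight. Its mean fell from 13.83 ± 0.14 to 12.68 ± 0.18 (SD, n = 3 each), a difference of -1.15 ± 0.14 (adjusted p = 0.00135), or 2.22-fold lower.

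*Cyp7b1*, which hydroxylates the oxysterols of the alternative route, gave 7.40, 7.48 and 7.22 in hSRY-OFF liver and 5.92, 6.01 and 5.84 in hSRY-ON liver. These were the closest hSRY-ON replicates of the 9 probes, with an SD of 0.085, and they lay near the detection floor of 5.62 to 5.77 on those arrays. The difference was -1.44 ± 0.12 (adjusted p = 0.000354), or 2.72-fold lower. Because the probe was dim, the size depended on the background: without background correction the difference was -0.64, still called (adjusted p = 0.000941).

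*Cyp27a1*, which starts the alternative route, was the only one of the 10 genes called higher. Its probe ILMN_2960114 gave 8.46, 8.60 and 8.43 in hSRY-OFF liver and 10.01, 10.46 and 9.27 in hSRY-ON liver, a difference of 1.42 ± 0.28 (adjusted p = 0.00848). Probe ILMN_2620326 gave 9.17, 9.42 and 9.27 against 10.62, 11.16 and 9.71, a difference of 1.21 ± 0.33 (adjusted p = 0.0292). Probe ILMN_2960108 gave 9.94, 10.20 and 9.95 against 11.27, 11.90 and 10.39, a difference of 1.15 ± 0.35 (adjusted p = 0.0389). In each probe all hSRY-ON arrays lay above all hSRY-OFF arrays, in the order replicate 2, replicate 1, replicate 3, and the folds were 2.67, 2.31 and 2.23. The probes measure 1 gene and are not replicates of each other. ILMN_2960114 stayed past the threshold whichever array was left out (highest adjusted p = 0.0378), whereas ILMN_2620326 lost its call without hSRY-ON replicate 1 or any hSRY-OFF array (0.0713 to 0.0969) and ILMN_2960108 without hSRY-ON replicate 1 or 2 or any hSRY-OFF array (0.0619 to 0.117).

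In conjugation, *Slc27a5* gave 12.17, 12.25 and 12.36 in hSRY-OFF liver and 11.27, 11.76 and 10.73 in hSRY-ON liver. The groups did not overlap, and the hSRY-ON arrays were spread over 1.03, against 0.19 in the controls. The difference was -1.01 ± 0.25 (adjusted p = 0.0190), or 2.01-fold lower, and it lost its call without hSRY-ON replicate 1 or any single hSRY-OFF array (adjusted p = 0.0532 to 0.0634). *Baat*, the next enzyme of the step, had no level to compare, with intensities of 129 to 160 and detection p from 0.125 to 0.732.

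In transport, *Abcb11* gave 8.93, 9.08 and 8.70 in hSRY-OFF liver and 8.51, 9.03 and 7.88 in hSRY-ON liver. The groups overlapped, since hSRY-ON replicate 2 lay within the control range. The difference of -0.43 ± 0.28 did not pass (adjusted p = 0.269), and it ranged from -0.71 to -0.13 when single arrays were left out. *Slc10a1* was undetected, with intensities of 123 to 149.

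*Nr1h4*, which encodes FXR, gave 11.66, 11.73 and 11.73 in hSRY-OFF liver and 11.79, 11.69 and 11.34 in hSRY-ON liver. The hSRY-ON arrays lay on both sides of the controls, and the difference was -0.10 ± 0.15 (adjusted p = 0.625), with the sign turned to 0.032 without hSRY-ON replicate 3. *Nr0b2* was undetected, with intensities of 130 to 152, so that its transcript, the usual readout of FXR activity on synthesis, was not measured by this probe. A probe at background does not show that a transcript was missing: the *Fgb* probe, for a major plasma protein of hepatocytes, was also detected on only 1 of the 6 arrays.

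**Figure D2:**
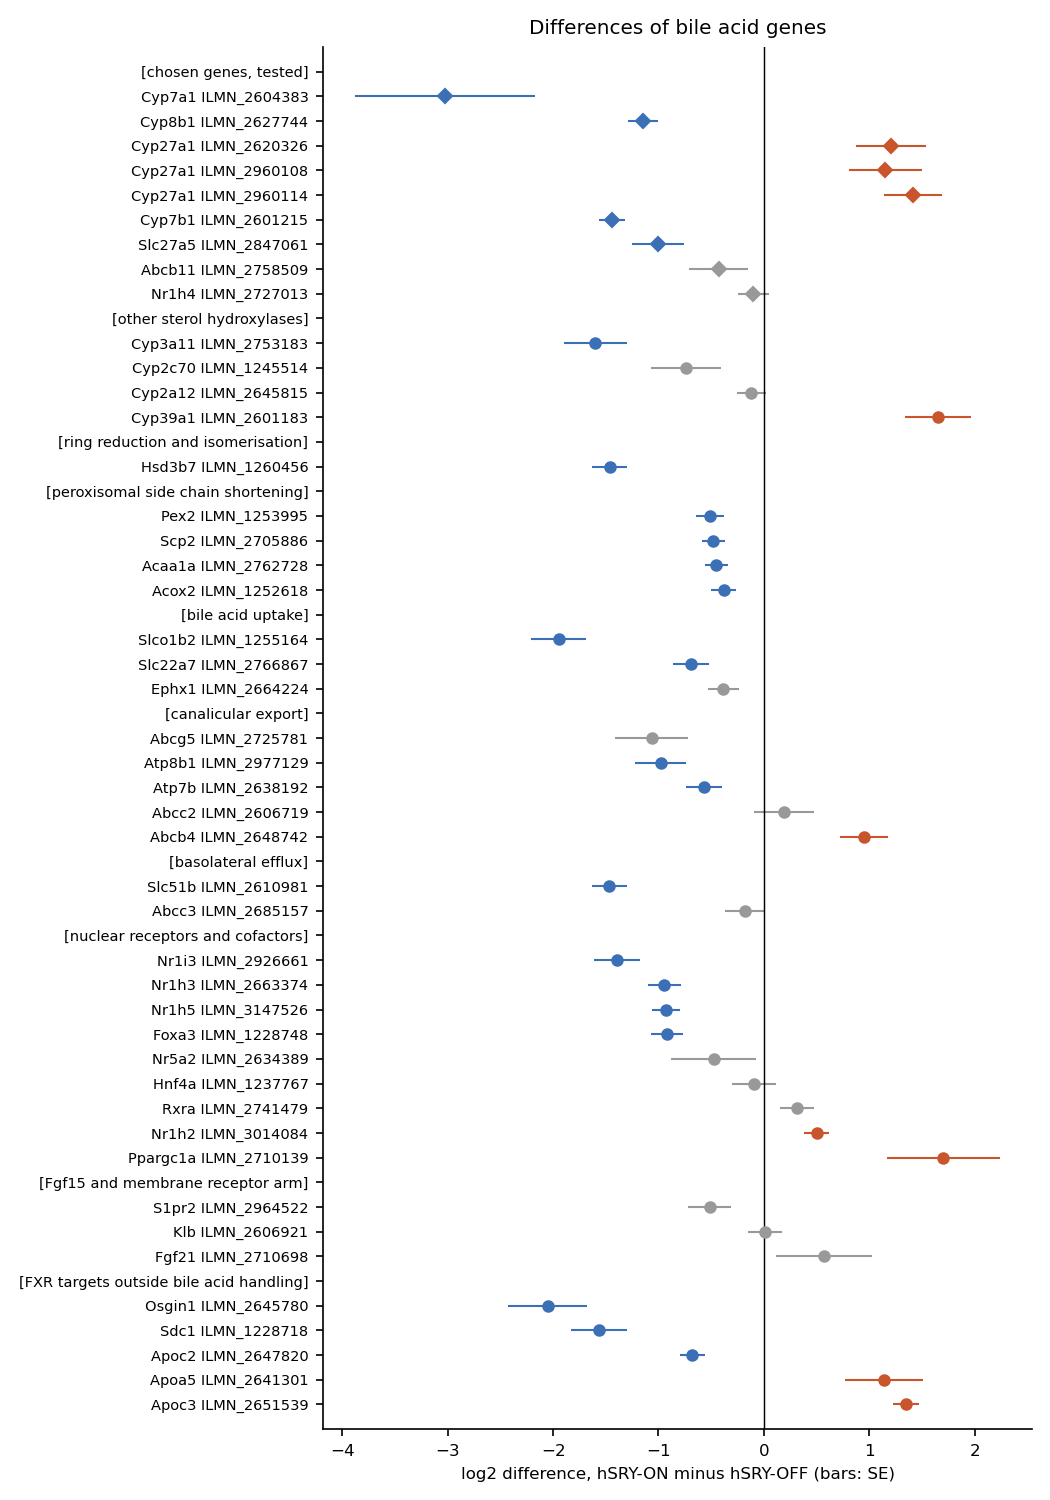
Log2 difference, hSRY-ON minus hSRY-OFF (horizontal axis), with its standard error, for the tested probes of the chosen genes (diamonds) and the named genes of the wider bile acid list (circles), grouped by role. Red marks probes called higher, blue probes called lower and grey probes not called, and *Cyp39a1* and *Nr1h5* are drawn at their fitted difference although the group with no detected array allows only a bound. Most called probes lie to the left of 0, with *Cyp7a1* farthest.

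The hSRY-ON arrays kept much the same order across these genes. Replicate 3 was the lowest hSRY-ON array at 8 of the 9 tested probes, with *Cyp8b1* the exception, and replicate 2 the highest at 7 of 9, with *Cyp8b1* and *Nr1h4* the exceptions. Of these probes 3 measure *Cyp27a1* alone and have the same order, so the counts are not of separate genes. Over all tested probes replicate 3 was the lowest of the 3 at 36.4% and replicate 2 the highest at 31.6%. This order held for *Cyp27a1*, which was higher than in controls, as well as for *Cyp7a1*, *Slc27a5* and *Abcb11*, so that hSRY-ON replicate 3 was nearest the controls in *Cyp27a1* and farthest from them in the other 3 genes. Counting groups that did not overlap, 3 of the 9 probes had all hSRY-ON arrays above and 4 had them all below the controls, next to 25.4% above and 24.6% below among all tested probes.

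**Figure D3:**
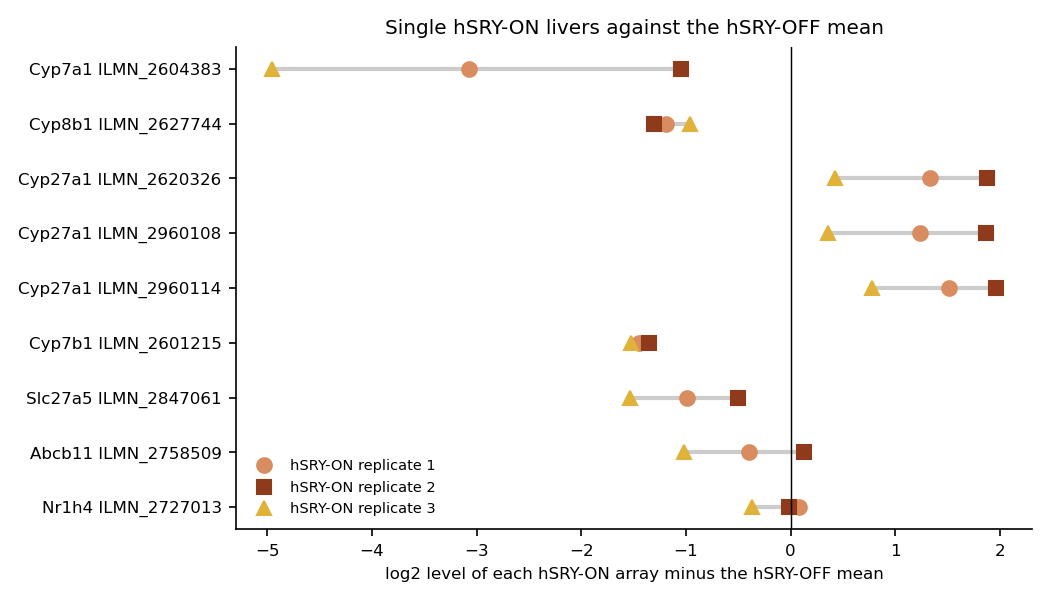
Difference of each hSRY-ON array from the hSRY-OFF mean (horizontal axis, log2) for the 9 tested probes (vertical axis), with 1 mark per hSRY-ON replicate. Replicate 3 is the leftmost mark for every probe but that of *Cyp8b1*, and the marks of *Cyp7b1* and *Cyp8b1* lie close together.

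Likeness of pattern was measured as the root mean square difference over the 6 arrays between log2 profiles, each set to its own hSRY-OFF mean. The probes nearest to *Cyp7a1* were those of *Ear6* (0.86), *Sult2a6* (0.89, listed as EG629219) and *Mbl2* (0.94), where the median of all other probes was 2.45. For *Nr1h4* the nearest were *Wipi2* (0.029), *Arl16* (0.039) and *Mto1* (0.040), with a median of 0.37, and for *Abcb11* they were *Mtfmt* (0.071), *Qpct* (0.071) and *Tbc1d8b* (0.074), with a median of 0.57. No other of the 10 genes was among the 3 nearest to *Cyp7a1*, *Nr1h4* or *Abcb11*. The measure weighs the size of a change, so it does not show whether genes that differ in size vary together.

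A wider list of the pathway held 82 other genes, of which 78 were in the table with 117 probes. Of these probes 77 were tested, and 7 were called higher and 28 lower, with 42 not called and a median difference of -0.38 (-0.37 with undetected arrays at their floor), next to the 15.8% higher and 17.3% lower among all tested probes. The counts by role are of probes, and some genes have more than 1. Among other sterol hydroxylases 2 of 5 probes rose and 1 fell. The 2 that rose were the probes of *Cyp39a1*, whose enzyme 7α-hydroxylates an oxysterol of brain origin. ILMN_2601183 was detected on all hSRY-ON arrays and no hSRY-OFF array and was at least 2.10-fold higher. Its adjusted p of 0.00771 belongs to the fitted difference of 1.65, which includes the undetected arrays, and not to that bound. *Cyp3a11*, a hydroxylase of steroids and drugs, fell by 1.60 ± 0.30 (adjusted p = 0.00740). *Cyp2c70*, which makes the muricholic acids of rodents, differed by -0.74 (adjusted p = 0.128), and *Cyp2a12* by -0.12 (adjusted p = 0.535).

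*Hsd3b7*, the enzyme that acts on the sterol ring after 7α-hydroxylation in both routes, gave 14.42, 14.47 and 14.39 in hSRY-OFF liver and 12.90, 12.71 and 13.29 in hSRY-ON liver with probe ILMN_1260456. The groups were well apart, and the difference was -1.46 ± 0.16 (adjusted p = 0.000977), with -1.63 (adjusted p = 0.00109) for the other probe. The ring reductase *Akr1d1* was not detected on any array. Of 17 probes for the shortening of the side chain in peroxisomes 5 fell and 0 rose, with a median of -0.20. Among all tested probes 17.3% fell and 15.8% rose. Those named differed by -0.48 for *Scp2* (a thiolase and lipid carrier), -0.45 for *Acaa1a* (a thiolase), -0.51 for *Pex2* (peroxisome assembly) and -0.38 for *Acox2* (the oxidase of branched chains), with adjusted p from 0.0135 to 0.0453.

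Of 4 probes for bile acid uptake 3 fell, next to 17.3% of all tested probes. *Slco1b2*, an organic anion transporter of the sinusoidal membrane that also takes up bile acids, had 3 probes. ILMN_1255164 gave 6.94, 7.43 and 7.62 in hSRY-OFF liver and 5.67, 5.58 and 4.89 in hSRY-ON liver, where only 1 array detected it. The difference was -1.95 ± 0.26 (adjusted p = 0.00185), or -1.60 with undetected arrays at their floor, the second probe gave -1.93 (adjusted p = 0.00202), and the third was undetected. *Slc22a7*, an organic anion transporter, fell by 0.69 (adjusted p = 0.0187), and *Ephx1* differed by -0.38 (adjusted p = 0.0823).

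At the canalicular membrane, 1 of 6 probes rose and 2 fell, where 15.8% of all tested probes rose and 17.3% fell. *Abcb4*, the flippase that puts phosphatidylcholine into bile, gave 10.81, 10.94 and 10.93 in hSRY-OFF liver and 11.92, 12.27 and 11.35 in hSRY-ON liver. All hSRY-ON arrays lay above the controls, with a difference of 0.95 ± 0.23 (adjusted p = 0.0172). *Atp8b1*, a flippase whose loss causes cholestasis in people, fell by 0.98 (adjusted p = 0.0186), and the copper pump *Atp7b* by 0.57 (adjusted p = 0.0388), with only 1 hSRY-ON array detected and -0.51 at the floor. The *Atp7b* call was lost in 13 of 15 alternative runs of the processing, and its other probes were undetected. The sterol exporter *Abcg5* differed by -1.06 (adjusted p = 0.0511) and the conjugate pump *Abcc2* by 0.19 (adjusted p = 0.644). At the basolateral membrane, *Slc51b* (listed as Ostb), a subunit of the bile acid efflux carrier and a known FXR target, gave 9.41, 9.88 and 9.70 against 8.27, 7.996 and 8.32. It fell by 1.46 ± 0.16 (adjusted p = 0.000935), its partner subunit *Slc51a* was undetected, and *Abcc3* differed by -0.18 (adjusted p = 0.473).

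Among nuclear receptors and their cofactors 2 of 23 probes rose and 9 fell, next to 15.8% and 17.3% of all tested probes. *Nr1h5*, the second mouse FXR gene, had a fitted difference of -0.93 (adjusted p = 0.00234) by a probe that no hSRY-ON array detected. That p belongs to the fit on undetected arrays, and the bound was at least 1.09-fold lower. A second *Nr1h5* probe, ILMN_2693605, detected on all hSRY-OFF arrays and 1 hSRY-ON array, fell by 0.91 ± 0.13 (adjusted p = 0.00265), or by 0.86 with undetected arrays at their floor, and the remaining probe was undetected. *Nr1i3* (CAR) fell by 1.39 (adjusted p = 0.00349), *Nr1h3* (LXRα, a sensor of oxysterols) by 0.94 (adjusted p = 0.00418) and *Foxa3* by 0.92 (adjusted p = 0.00449). The 2 probes that rose, named after their values were seen, were of *Nr1h2* (LXRβ), by 0.50 (adjusted p = 0.0160), and *Ppargc1a*, a coactivator of fasting metabolism, by 1.71 (adjusted p = 0.0449). The other *Nr1h2* probe differed by 0.41 and was not called (adjusted p = 0.0550). Not called were *Hnf4a* and *Nr5a2*, which act on bile acid synthesis genes, and *Rxra*, the FXR partner: *Hnf4a* differed by -0.091 (adjusted p = 0.768) and *Nr5a2* by -0.48 (adjusted p = 0.400), and *Rxra* by 0.31 (adjusted p = 0.178).

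In the list of the FGF15 arm and of other hormones and membrane receptors tied to bile acids, 0 of 3 tested probes were called by limma, among *Klb*, the coreceptor for the gut hormone FGF15 (0.0084, adjusted p = 0.974), *S1pr2*, a membrane receptor for conjugated bile acids (listed as Edg5, -0.52, adjusted p = 0.0897) and *Fgf21*, a separate hormone of the liver (0.57, adjusted p = 0.369). At an unadjusted p under 0.05 there was 1, *S1pr2*. The FGF15 receptor *Fgfr4* was detected on 2 hSRY-OFF arrays and no hSRY-ON array and was not tested. Of FXR targets outside bile acid handling 2 of 15 probes rose and 5 fell, where 15.8% of all tested probes rose and 17.3% fell. *Apoc3*, an inhibitor of triglyceride clearance that FXR represses, rose by 1.35 ± 0.13 (adjusted p = 0.000492), and *Apoa5*, named after its values were seen, by 1.14, just within the threshold. *Apoc2*, which activates lipoprotein lipase, fell by 0.68 (adjusted p = 0.00625) with 1 probe and differed by -0.051 (adjusted p = 0.813) with the other. *Sdc1*, a receptor for lipoprotein remnants, fell by 1.56 (adjusted p = 0.00510), and *Osgin1*, an inhibitor of growth induced by oxidative stress, by 2.05 ± 0.37 (adjusted p = 0.00640). Among the named genes of the wider list that were called, *Scp2*, *Acaa1a*, *Pex2*, *Acox2*, *Slc22a7*, *Abcb4*, *Atp8b1*, *Atp7b*, *Nr1h2*, *Ppargc1a* and *Apoa5* each lost the call when 1 or more of the arrays was left out singly, with the highest adjusted p from 0.0596 (*Scp2*) to 0.167 (*Acox2*). With the other alternative runs counted too, the call was lost in 13 of 15 runs for *Atp7b* and 9 of 16 for *Ppargc1a*. For *Acox2* it was lost in 8 of 16 and for *Apoa5* in 7 of 16.

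**Figure D4:**
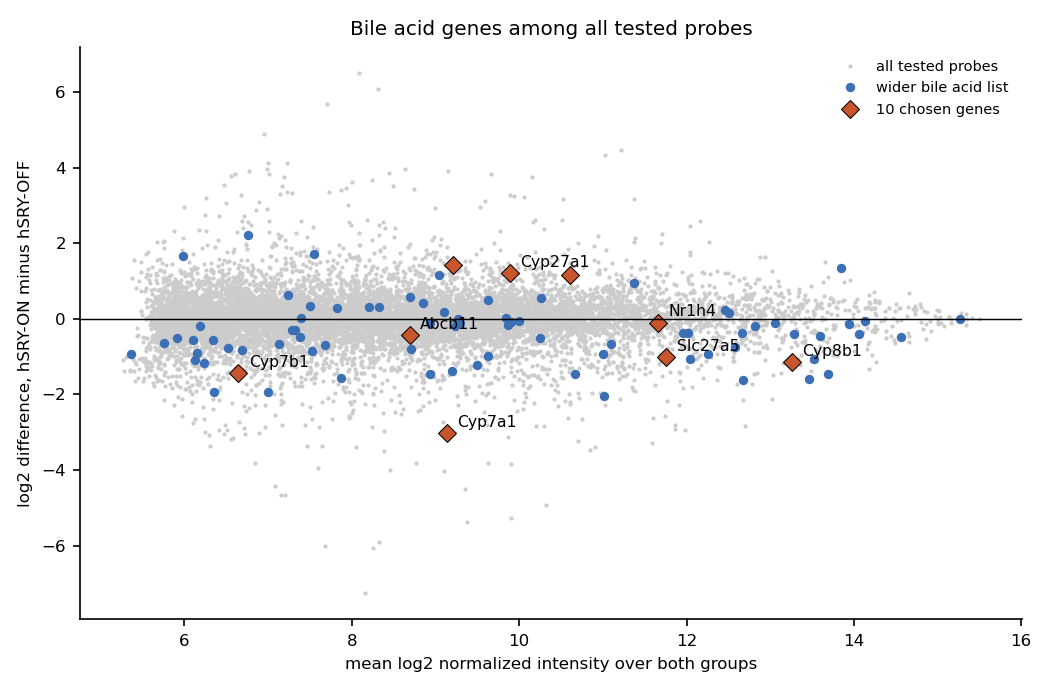
Mean log2 signal over the 6 arrays (horizontal axis) against the log2 difference, hSRY-ON minus hSRY-OFF (vertical axis), for all 10734 tested probes (grey), the wider list (blue) and the 9 tested probes of the chosen genes (red diamonds). The *Cyp27a1* probes lie above 0 and *Cyp7a1*, at -3.03, near the lower edge of the cloud.

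In whole liver, fewer cells of a type and less RNA per cell cannot be told apart. Some marker probes of hepatocytes and of other cells differed between the groups, while others of the same lists did not. Of 8 tested hepatocyte marker probes 4 fell and 0 rose, where 17.3% of all tested probes fell and 15.8% rose. Those that fell were of *Alb* (-1.11), *Serpina1a* (-1.11 and -0.91) and *Ttr* (-0.46), and the *Alb* probe was dim, with intensities of 202 to 448. Not called were *Ahsg* (0.011 and -0.037), *Apoa1* (-0.12) and *Apoh* (-0.34). The summed signal was 118533 to 123907 in hSRY-OFF and 105164 to 112596 in hSRY-ON liver, with 7 of the 9 listed genes detected. Of 9 Kupffer cell probes (6 of 7 genes detected) 4 fell and 1 rose, with sums of 6329 to 8560 and 4308 to 5586. Of 6 erythroid probes (6 of 9 genes) 1 rose, with overlapping sums of 63678 to 82149 and 80095 to 92398. Of 4 cholangiocyte probes (4 of 9 genes, with *Krt19*, *Sox9*, *Cftr* and *Tff2* not detected) 2 fell, with sums of 1767 to 1845 and 1470 to 1626. The part of these shifts in the differences of the bile acid genes was not tested. Of ileal genes, *Slc10a2* and *Fgf15* were not detected and *Fabp6* was detected on 1 array. The arrays were alike in signal, with median intensities of 147 to 165 and 40.2% to 41.9% of probes detected.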

How the data were processed

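Total RNA of 6 livers was hybridised to single-colour Illumina MouseRef-8 bead arrays. The deposited table gave, per probe and array, a mean bead intensity that the authors had neither background-corrected nor normalized (lowest value 108) and a detection p-value, the rank of the probe among the negative control beads. Every column matched a sample (0 unmatched). Control probes, slides, scan dates and probe sequences were not used here, and the genome build is not given in the sources used here. The study names TCC, a package for count data, and the submitters' processing notes name limma. Intensities are not counts, so no count model was used.

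In R 4.3.3 with limma 3.58.1, background was removed with nec (normexp from detection p, offset 16), arrays were quantile normalized and signals log2 transformed. A probe entered the fit if 3 or more of the 6 arrays detected it (detection p under 0.01), and it was fitted with lmFit and eBayes without covariates. P-values are two-sided and adjusted over all 10734 tested probes (threshold 0.05). A group with no detected array has only a bound: the brighter mean was set against the dim arrays, each at its lowest detected signal or at the probe's signal if that was higher, and is written "at least N-fold". Undetected arrays of partly detected groups were also set to that floor. Precision is limited by having 3 arrays a group.

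Of the 18138 symbols, 14307 were current in RefSeq (GRCm38.p6), 2927 were matched by an older symbol and 904 stayed unmatched. All probes of the 10 genes are named whatever their values. Of each list of the pathway (other sterol hydroxylases, ring reduction and isomerisation, peroxisomal side chain shortening, bile acid uptake, canalicular export, basolateral efflux, nuclear receptors and cofactors, the Fgf15 and membrane receptor arm, FXR targets outside bile acid handling, ileal genes) up to 4 tested probes with the smallest p are named, 1 per gene, with *Hsd3b7*, *Akr1d1*, *Abcc2*, *Abcc3*, *Abcb4*, *Slco1b2*, *Nr5a2*, *Hnf4a*, *Rxra*, *Fgfr4* and *Klb* whatever their values. *Abcc4*, *Onecut1* and *Slc10a5* were among the genes not analysed here, as were the markers *Apob*, *Tf*, *Epcam* and *Ahsp*. The genes and lists were chosen with earlier results of these data known, and no set test was run. Alternatives covered background correction, scaling, the probe filter, the variance model, array weights, a replicate block, a stricter threshold, averaging the probes of a gene and leaving out each array.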

Additional observations from a re-analysis of the deposited data

How the results depend on the processing

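The calls of *Cyp7b1*, *Cyp8b1* and the *Cyp27a1* probe ILMN_2960114 held under every alternative run, and all called differences of the 10 genes kept their direction. With no probe filter the differences were the same but 3 missed the threshold: *Cyp7a1* -3.03 (adjusted p = 0.0750) and *Cyp27a1* 1.21 (0.0653) and 1.15 (0.0854). With array weights *Nr1h4* turned to 0.014. Requiring detection on all 6 arrays removed *Cyp7a1* from the test. Without single arrays the ranges were -4.01 to -2.06 for *Cyp7a1*, 0.88 to 1.61, 0.80 to 1.56 and 1.15 to 1.74 for *Cyp27a1* (ILMN_2620326, ILMN_2960108 and ILMN_2960114), -1.26 to -0.75 for *Slc27a5*, -0.19 to 0.032 for *Nr1h4* and -0.71 to -0.13 for *Abcb11*. The probes of the 10 genes called higher numbered 1 with no filter, at an adjusted p of 0.01 and with probes of a gene averaged, and 1 to 3 without single arrays. Those called lower numbered 2 at 0.01 and 2 to 4 without single arrays. For the wider list, 3 were called higher and 14 lower at 0.01, and 3 to 9 higher and 15 to 27 lower without single arrays. Over all probes, 693 were called higher and 972 lower at 0.01, and 856 to 1822 higher and 965 to 2125 lower without single arrays. Among uncalled genes of the wider list *Klb* turned to -0.051 with median scaling and ranged from -0.12 to 0.16 without single arrays, *Abcc2* from -0.15 (without hSRY-ON replicate 2) to 0.45 and *Hnf4a* from -0.28 to 0.13 (without hSRY-ON replicate 3). Of 24 named probes of the wider list that were called, 13 kept the call in every alternative run that tested them. The stricter threshold and the averaging of probes were not part of this count. Some runs did not test every probe: *Cyp39a1* ILMN_2601183 and *Nr1h5* ILMN_3147526 were tested in 12 of 16 runs, and *Slco1b2* ILMN_1255164 in 15. The causes were not tested.

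The groups share replicate numbers, and the labels do not say what the numbers stand for. Deviations of same-numbered arrays from their group means correlated at 0.025, 0.095 and 0.052, against -0.17 to 0.13 for the other pairs. With 3 arrays a group these values cannot show whether the numbers mark a pairing, so the fit was also run with a replicate block. With the replicate block 1565 probes were called higher and 1645 lower, against 1700 and 1854 without it; the 10 genes kept 3 probes called higher and 4 lower, and *Cyp7a1* had an adjusted p of 0.0270. Dim probes, *Cyp7b1* and *Slco1b2* among them, have differences that shrink with a larger offset, and probes at background give no level.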
